A study of Mus musculus with 6 samples.

Results

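Fragments of box H/ACA small nucleolar RNAs (snoRNAs) and of small Cajal body RNAs (scaRNAs) were counted in small RNA sequencing libraries made from mouse embryonic stem cells of the J1 line. The members are the mouse genes annotated in GENCODE M21 as snoRNA or scaRNA with a symbol that starts with Snora or Scarna. A deposited tag, meaning one distinct read sequence with its count, was given to a member when it had 18 to 44 bases and matched the sense strand of the transcript without a mismatch. There were 49 such symbols among 6078 small non-coding RNA genes in the annotation, of which 3326 had any tag. Tags were found for 47 members, and 24 members reached 20 tags in at least 1 library. Snora15 and Snora35 had 0 tags in all 6 libraries, where a count of 0 allows up to 3 tags in each.

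J1 is an established line, here grown on gelatin in 1000 U/ml of leukemia inhibitory factor (LIF), a cytokine that maintains self-renewal. Over 24 h, in medium with LIF, the cells received retinoic acid (RA) at 1 µM, BIO at 1 µM, CHIR99021 at 3 µM, vitamin C (VC) at 50 µg/ml, or 1 µL of a vehicle, ddH2O or DMSO. Retinoic acid drives embryonic stem cells towards differentiation. BIO and CHIR99021 block glycogen synthase kinase 3, and vitamin C serves dioxygenases that demethylate histones and DNA. DMSO was the vehicle for retinoic acid, BIO and CHIR99021, and ddH2O the vehicle for vitamin C. Each of the 6 groups was 1 library made from 1 µg of total RNA, so there was no replicate spread and no p-value was computed. Per the labels, the raw reads behind the BIO library were lost.

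H/ACA RNAs fold into a pair of hairpins joined by a hinge that carries the H box, with the trinucleotide ACA close to the 3′ end. Bound to dyskerin and its partner proteins, they guide the conversion of uridine to pseudouridine in ribosomal RNA, or, for those kept in Cajal bodies, in spliceosomal RNAs. Most vertebrate H/ACA RNAs are cut from introns of host genes, and short stable pieces of them, some bound by Argonaute proteins as microRNAs are, occur in small RNA libraries. A fragment count is therefore not a measure of the whole guide RNA, and the libraries analysed here do not show the level of full-length RNA.

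The label was checked against the transcript sequences. ACA stood within the last 10 bases of 38 of 40 Snora transcripts, 4 of 9 Scarna transcripts and 8 of 99 transcripts of box C/D snoRNAs (Snord), the other large class of guide RNAs. ACA at exactly 3 bases from the end, its place in H/ACA RNAs, was found in 34 of 40 Snora, 2 of 9 Scarna and 0 of 99 Snord transcripts. The H box was searched as ANANNA between 30 and 70% of the length, and was present in 38 of 40 Snora, 6 of 9 Scarna and 48 of 99 Snord transcripts, so this short motif separates the classes poorly. TGATGA in the first 20 bases, which holds the box C motif, was found in 0 of 40 Snora, 4 of 9 Scarna and 70 of 99 Snord transcripts. All searches were on the transcript strand. The H/ACA label thus described the Snora members, while the Scarna members are a mixture: Scarna2, Scarna9 and Scarna17 are known as box C/D RNAs, and Scarna6 and Scarna10 as composites of both types.

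The libraries held from 18870345 tags (DMSO) to 23758363 tags (CHIR99021), and levels below are tags scaled to 1000000 tags of the library (RPM). Intervals are 95% Clopper-Pearson intervals for a share, and 95% exact conditional binomial intervals for a ratio of libraries. Both cover counting error only, since each group was 1 library. They treat each read as independent. Without molecular identifiers the reads of 1 molecule cannot be told from those of another, so the intervals may be too narrow even for counting error. The libraries differed in tag length: tags of 27 to 44 bases made up 5.26% after RA, 20.4% after BIO, 10.1% after CHIR99021, 7.62% after VC, 16.4% with ddH2O and 12.0% with DMSO. Tags of 31 or more bases made up 1.36% of the BIO and 1.08% of the ddH2O library and 0.0419 to 0.178% of the other 4. Tags of annotated ribosomal RNA made up 0.381% of the RA library and 0.130 to 0.167% of the others. MicroRNA tags made up 3.78% of the RA library and 6.03 to 11.4% of the others, and the 14 hairpins of the stem cell clusters miR-290 and miR-302 held 16.8% of microRNA tags after RA and 27.2 to 34.2% in the others. Marker hairpins of other cell types held less: 0.125 to 0.186% for fibroblasts, 0.125 to 0.578% for neurons, 0.0587 to 0.631% for muscle and 0.0104 to 0.0201% for blood. Mir122, of liver, had 1893 tags after CHIR99021 and 40 to 58 in the others. The part of these differences in the results below was not tested. Antisense tags to members numbered 0 or 1 in every library.

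The sequences below are those of the most abundant members, from GENCODE M21 on the GRCm38 build, 5′ to 3′ with T for U and with the most abundant tag in capitals. They show where in the guide RNA the recovered fragment lies. Snora16a (chr4:132309464-132309600, plus strand), Snora61 (chr4:132310240-132310369, plus strand), Snora24 (chr3:123507937-123508066, minus strand) and Snora41 (chr1:63179004-63179135, plus strand) had their most abundant tag at the 3′ end, where it carries the ACA box in the last bases of the transcript.
Snora16a: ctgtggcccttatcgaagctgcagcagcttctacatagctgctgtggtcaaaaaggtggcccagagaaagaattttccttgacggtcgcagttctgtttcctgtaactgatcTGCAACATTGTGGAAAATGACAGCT
Snora61: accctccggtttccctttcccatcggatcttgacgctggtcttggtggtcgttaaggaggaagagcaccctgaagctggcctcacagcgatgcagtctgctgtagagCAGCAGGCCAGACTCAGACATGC
Snora24: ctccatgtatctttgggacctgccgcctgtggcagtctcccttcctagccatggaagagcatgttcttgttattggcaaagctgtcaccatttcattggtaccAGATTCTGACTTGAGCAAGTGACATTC
Snora41: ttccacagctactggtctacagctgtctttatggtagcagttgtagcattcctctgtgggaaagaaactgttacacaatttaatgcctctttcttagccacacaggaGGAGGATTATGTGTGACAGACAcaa

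Snora44 (chr4:132309941-132310069, plus strand) and Snora7a (chr6:115807975-115808114, minus strand) gave fragments that begin at the annotated 5′ end of the transcript.
Snora44: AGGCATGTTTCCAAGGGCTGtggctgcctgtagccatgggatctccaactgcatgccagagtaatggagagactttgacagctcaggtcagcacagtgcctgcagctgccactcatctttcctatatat
Snora7a: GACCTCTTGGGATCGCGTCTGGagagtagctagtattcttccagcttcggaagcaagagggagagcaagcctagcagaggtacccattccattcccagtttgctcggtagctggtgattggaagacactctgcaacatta

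Snora57 (chr19:8888538-8888685, minus strand), Snora81 (chr16:23110756-23110933, plus strand) and Snora36b (chr1:185242907-185243038, plus strand) gave fragments from inside the transcript, away from both ends.
Snora57: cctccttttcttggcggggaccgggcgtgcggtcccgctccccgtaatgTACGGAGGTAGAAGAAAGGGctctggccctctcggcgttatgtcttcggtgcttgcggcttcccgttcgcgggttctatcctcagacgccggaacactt
Snora81: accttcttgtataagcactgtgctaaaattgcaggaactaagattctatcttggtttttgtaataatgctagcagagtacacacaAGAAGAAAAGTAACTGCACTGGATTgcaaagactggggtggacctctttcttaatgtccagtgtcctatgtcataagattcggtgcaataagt
Snora36b: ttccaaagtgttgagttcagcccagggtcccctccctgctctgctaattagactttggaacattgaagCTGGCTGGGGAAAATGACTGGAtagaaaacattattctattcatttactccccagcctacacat

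The members differed in how far their fragments shared a place. Of the Snora57 tags, 71.7% ended at base 69 of 148. Of the Snora16a tags, 98.4% ended at base 137, the last base, while only 43.3% shared the most common start, base 113. In Snora24, likewise, 93.2% of tags ended at the last base and 29.4% shared a start. In Snora41 it was the other way round, with 74.6% of tags starting at base 108 and 38.0% sharing the most common end, base 129. Snora7a and Snora44, with 89.5 and 96.1% of tags starting within 2 bases of the 5′ end, shared their 5′ side. Scarna10 was spread, with 24.4% of tags at its most common start and 12.5% at its most common end.

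**Figure D1:**
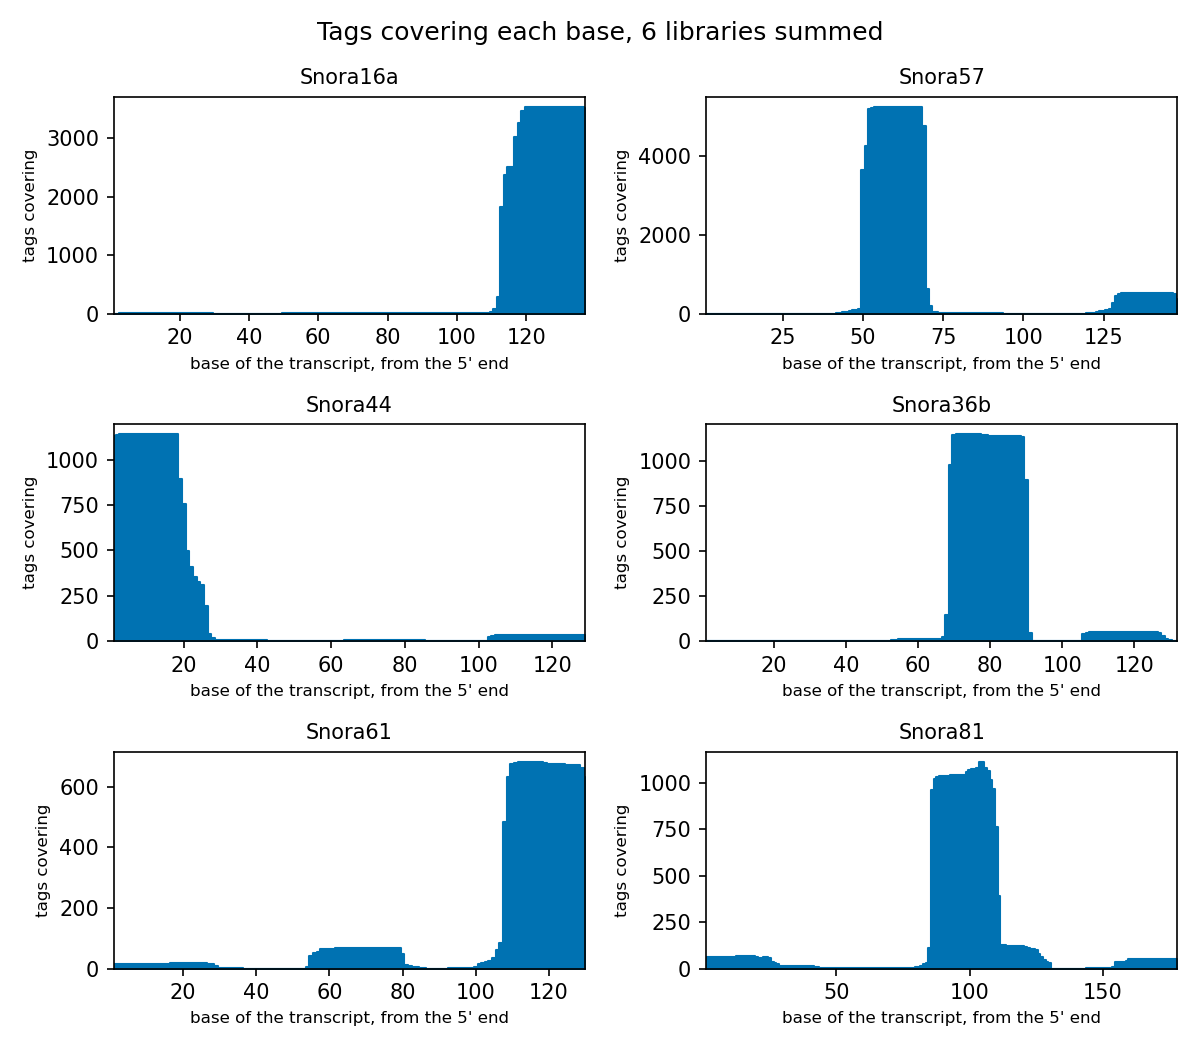
Number of tags covering each base of 6 members, summed over the 6 libraries; the x axis is the base counted from the 5′ end of the transcript and the y axis the number of tags. Coverage stands in 1 main block per member, at the 3′ end in Snora16a and Snora61, at the 5′ end in Snora44, and inside the transcript in Snora57, Snora36b and Snora81.

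Among the 24 members with 20 tags or more, 3′-end fragments (ending within 3 bases of the annotated end) made up 99.0% of Snora16a, 98.4% of Snora24, 99.2% of Snora70 and 87.4% of Snora61. In Snora41 they made up 52.8%, and internal tags 47.2%. Fragments of the 5′ end made up 80.5% of Snora62, which lies in the ribosomal protein gene Rpsa, 74.5% of Scarna6, 69.03% of Scarna3b and 64.3% of Scarna3a. No tag of Snora62 and Snora34 reached within 3 bases of the 3′ end. Tags of the 5′ part, the part before the midpoint, had a median of 20 bases in every library, and tags of the 3′ part one of 22 to 24 bases.

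**Figure D2:**
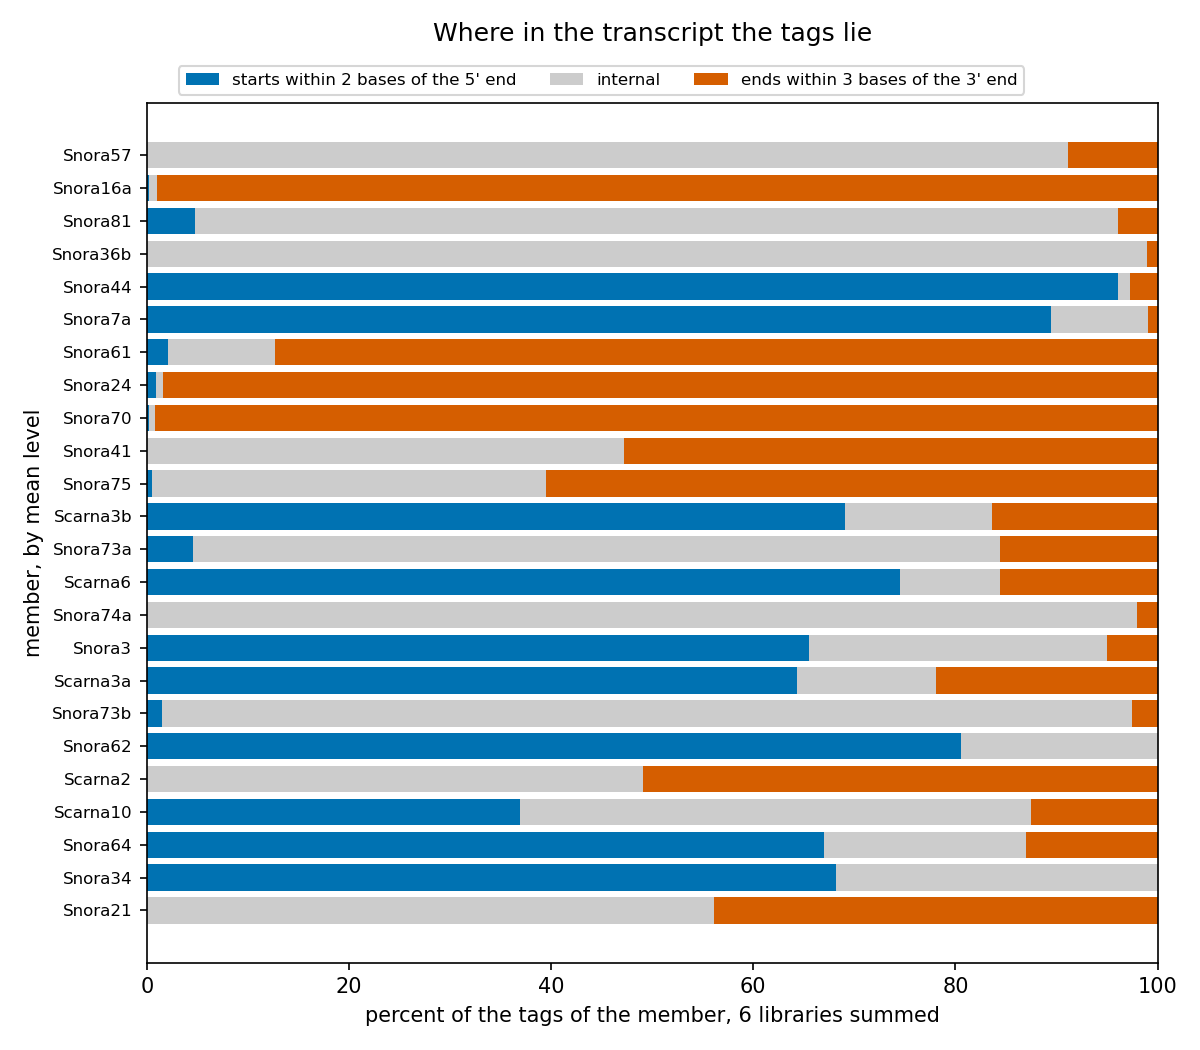
Percent of the tags of each of 24 members that start within 2 bases of the 5′ end (blue), lie inside (grey) or end within 3 bases of the 3′ end (orange), over the 6 libraries summed, with members ordered from the top by mean level. Neighbours in level differ in the end they come from: Snora44 is at 96.1% 5′-end tags and Snora61 at 87.4% 3′-end tags.

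In each library 5 members held from 62.2 to 68.9% of all member tags. Snora57 was the highest member in every library, at 48.4 RPM after RA, 40.5 after BIO, 44.03 after CHIR99021, 49.1 after VC, 43.3 with ddH2O and 53.5 with DMSO. Its lowest and highest libraries were BIO and DMSO. The sequence is not unique, however: 99.6% of these tags also matched Gm26132, annotated as another snoRNA gene, and the files cannot say which of the loci they came from. The same holds for Snora70, which shared 99.8% of its tags with Gm23855, and for Snora81, which shared 90.2% with Gm22519.

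**Figure D3:**
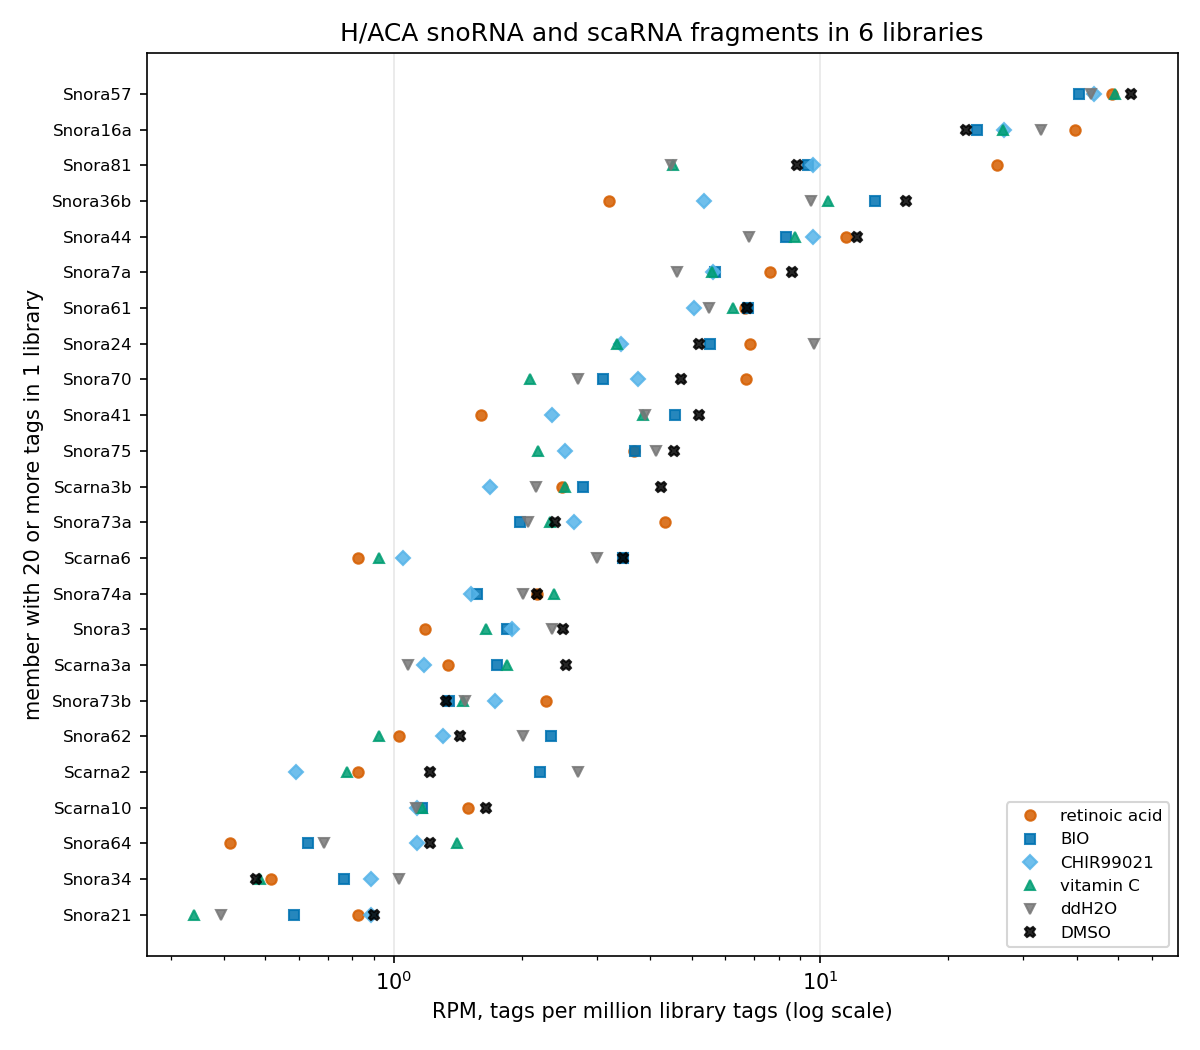
Level of each of 24 members in the 6 libraries, 1 point per library, on a log axis of RPM. Snora57 stays between 40.5 and 53.5 in all libraries, while Snora81 and Snora36b spread the most among the abundant members, with RA at the high end of Snora81 (25.96) and at the low end of Snora36b (3.20).

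Over all members, the fragments made up a small and similar share of every library. Members summed to 187 RPM after RA, 151 after BIO, 140 after CHIR99021, 146 after VC, 156 with ddH2O and 178 with DMSO. Box C/D fragments, the comparison class, summed to 923, 1055, 824, 882, 945 and 1098 RPM in the same order. Terc, the telomerase RNA, which carries an H/ACA domain and is no member, had only 34 to 78 tags a library.

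The summed ratio of members was 1.05 for RA against DMSO (1.00 to 1.10), 0.849 for BIO against DMSO (0.809 to 0.891), 0.787 for CHIR99021 against DMSO (0.750 to 0.826) and 0.932 for VC against ddH2O (0.887 to 0.980). In bulk RNA, fewer cells that make a fragment and less of it per cell cannot be told apart. The vehicles themselves differed, with a ratio of 0.877 for ddH2O against DMSO (0.836 to 0.921). The choice of total moved these sums. With microRNA tags as the total the ratio to DMSO was 3.18 for RA (3.03 to 3.33), 1.03 for BIO, 1.49 for CHIR99021 and 1.17 for ddH2O, so the last 3 turned round. Under TMM scaling it was 1.31 for RA and 1.16 for CHIR99021. With box C/D tags as the total it was 1.05 for CHIR99021 and 1.02 for ddH2O. The sum after RA was 0.988 of DMSO when only tags of 20 to 26 bases were counted and used as the total.

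A gene was called higher or lower if it had 20 tags or more in either library, differed 2-fold or more and had an interval that left out 1. The calls were made over all small non-coding RNA genes, and the share of genes called is given beside each count as the background.

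For retinoic acid against DMSO, both in medium with LIF, 1 of 22 members was called higher and 5 were called lower. Among 961 genes of all classes, 13.1% were called higher and 34% lower. The member called higher was Snora81, in an intron of the translation factor gene Eif4a2. The members called lower were Snora36b, Scarna6, Snora41, Snora64 and Snora3. The median log2 ratio was -0.16 over the members, -0.40 over all genes and -0.64 over 51 box C/D genes, of which 17 were called lower and 0 higher. With microRNA tags as the total, 15 members were higher and 0 lower, and under TMM scaling 4 were higher and 4 lower, so no direction of the class is read from these counts.

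Snora81 stood at 25.96 RPM after RA, 9.39 after BIO, 9.64 after CHIR99021, 4.51 after VC, 4.47 with ddH2O and 8.85 with DMSO. The RA library was the highest, and the VC library and that of its vehicle, ddH2O, were the lowest. The ratio of RA to DMSO was 2.93 (2.46 to 3.52), from 503 against 167 tags, and it lay between 2.52 and 8.89 under the alternatives tried. Its most abundant tag, in capitals above, was counted 175 times after RA against 40 times in DMSO. Snora81 also differed between the vehicles, at 0.505 in ddH2O against DMSO (0.387 to 0.656), just short of the 2-fold limit.

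Snora16a, in Snhg12, a host gene of several snoRNAs, was higher after RA than in DMSO without reaching 2-fold. It stood at 39.7 RPM after RA, 23.4 after BIO, 26.98 after CHIR99021, 26.9 after VC, 33.1 with ddH2O and 21.99 with DMSO. RA against DMSO gave 1.80 (1.60 to 2.04) and ddH2O against DMSO 1.503 (1.33 to 1.70), so ddH2O also lay above DMSO. Its neighbours in the same host gene had ratios close to 1 after RA. Snora44 stood at 11.5 RPM after RA and 12.2 in DMSO, a ratio of 0.940 (0.779 to 1.14). Snora61 stood at 6.66 RPM after RA and 6.73 in DMSO, a ratio of 0.989 (0.768 to 1.27). The 3 RNAs thus come from 1 host gene and their fragments had different ratios, as the intervals of Snora16a do not overlap those of the other 2.

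Over the 9 members hosted by Snhg genes, non-coding host genes whose known products are snoRNAs, tags summed to 1390 after RA and 956 in DMSO, a ratio of 1.42 (1.30 to 1.54). None of the 6 compared was called, and most of this difference lies in Snora16a, with 769 against 415 tags. Over the 11 members hosted by ribosomal protein genes the sum was 381 tags after RA and 390 in DMSO, a ratio of 0.952 (0.824 to 1.10), with 0 called higher and 2, Snora3 and Snora64, called lower among 5, beside the 34% called lower among all genes, and nothing is read from that count.

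Snora73a and Snora73b, copies of the U17 RNA in the locus of Snhg3 and Rcc1, take part in the cleavage of pre-ribosomal RNA and are not known as pseudouridylation guides. Together they had 128 tags after RA and 70 in DMSO, a ratio of 1.78 (1.32 to 2.42), and neither was called. Snora73a stood at 4.34 RPM after RA and at 1.98 to 2.65 in the other 5 libraries, and Snora73b at 2.27 after RA and at 1.32 to 1.73 in the others. The RA library was the highest of 6 for both. However, 25.4% of Snora73a tags also match Snora73b, and 38.3% of Snora73b tags also match Snora73a, so the members are not independent of each other.

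Snora41, in an intron of the translation elongation factor gene Eef1b2, stood at 1.60 RPM after RA, 4.58 after BIO, 2.36 after CHIR99021, 3.83 after VC, 3.88 with ddH2O and 5.19 with DMSO. RA and CHIR99021 were the lowest libraries. RA was 3.25-fold lower than DMSO (2.15 to 5.03), from 31 against 98 tags, and CHIR99021 2.20-fold lower (1.57 to 3.12), from 56 against 98 tags. The RA value stayed called against ddH2O, at a ratio of 0.412, and the CHIR99021 value did not, at 0.608. Scaled to microRNA tags, the ratio to DMSO was 0.934 for RA and 0.861 for CHIR99021, and neither was called.

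Snora64, in Rps2, had 8 tags after RA and 23 in DMSO, 2.95-fold lower (1.27 to 7.63), and Snora3, in Rpl27a, 23 against 47 tags, 2.10-fold lower (1.25 to 3.62). Both rest on few tags, and both turned round when microRNA tags were the total, to ratios of 1.03 for Snora64 and 1.45 for Snora3. Against ddH2O neither was called, with ratios of 0.601 for Snora64 and 0.504 for Snora3. Of the Snora3 tags, 56.3% also matched a second snoRNA gene, Gm24698.

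**Figure D4:**
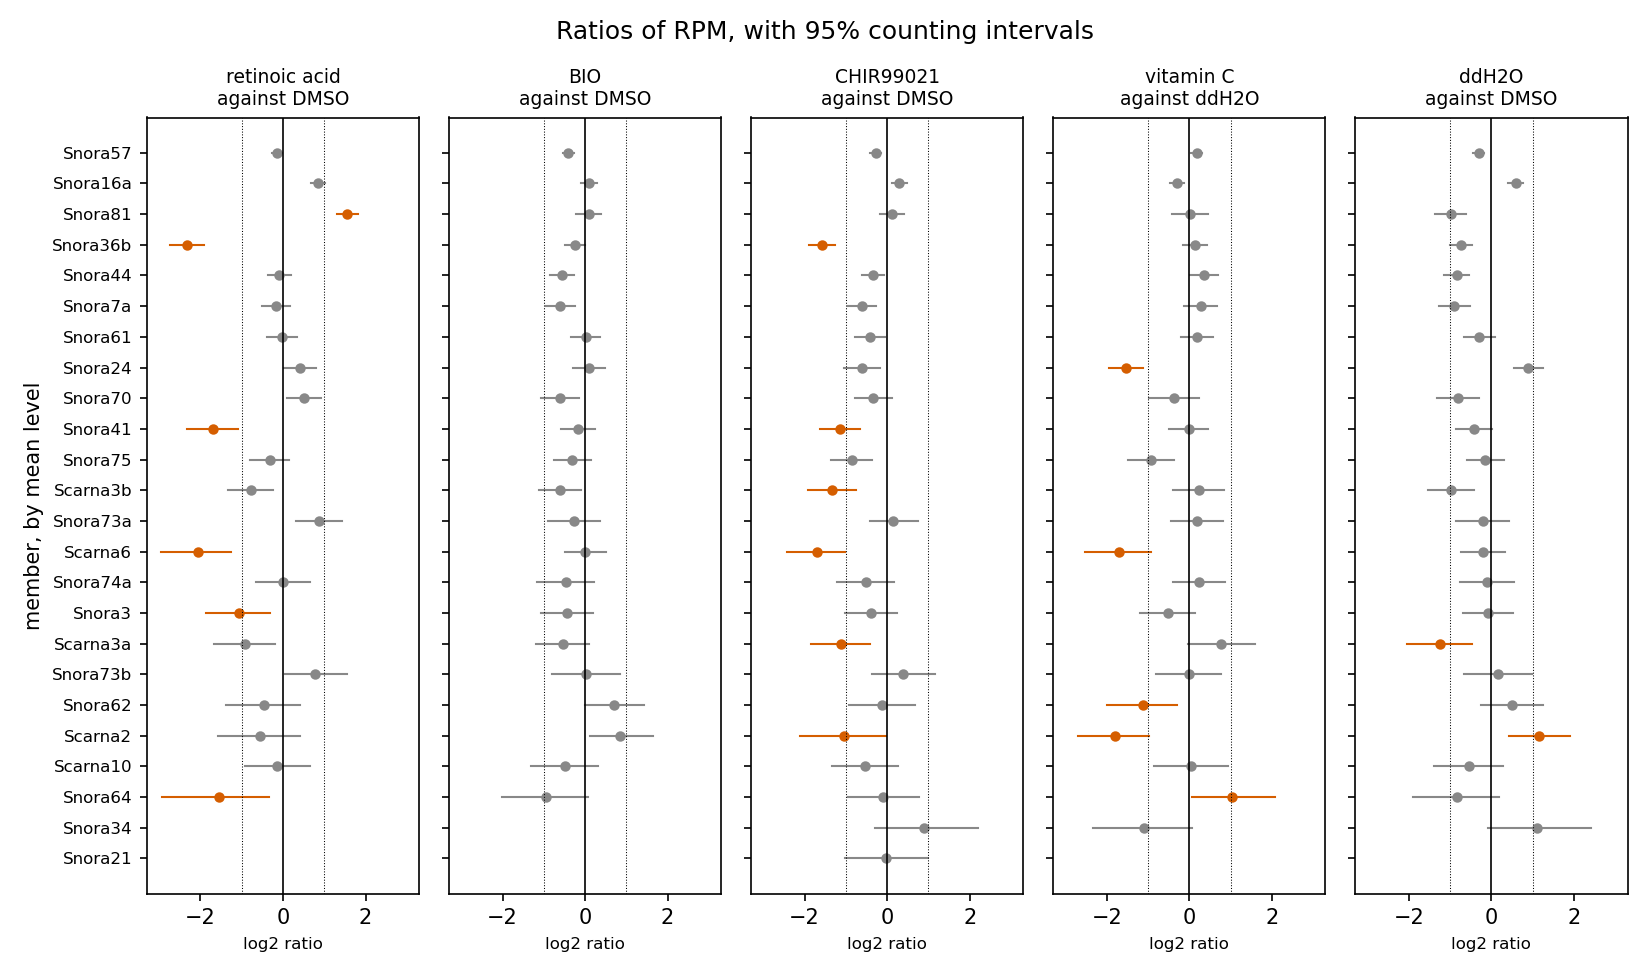
Log2 ratio of RPM for each of 24 members in 5 comparisons, with 95% counting intervals; orange marks called members, and the dotted lines mark 2-fold. RA and CHIR99021 share low values for Snora36b, Snora41 and Scarna6, and BIO has no called member; the 3 treatments share the DMSO library as control.

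Snora36b carries a microRNA. The annotation places the hairpin Mir664 inside it, 88.1% of its tags also matched that hairpin, and 1135 of its tags began within 2 bases of the start of miR-664-5p, against 49 for miR-664-3p. The microRNA sequences held in members are shown as listed by RefSeq on GRCm38.p6, with the seed, bases 2 to 8, in capitals. MiR-664-5p lies at chr1:185242975-185242995 and miR-664-3p at chr1:185243012-185243033, both on the plus strand.
miR-664-5p: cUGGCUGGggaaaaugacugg
miR-664-3p: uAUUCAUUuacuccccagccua
The most abundant Snora36b tag, in capitals in the sequence above, begins at the same base as miR-664-5p and is 1 base longer.

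Snora36b stood at 3.20 RPM after RA, 13.4 after BIO, 5.35 after CHIR99021, 10.4 after VC, 9.53 with ddH2O and 16.0 with DMSO. RA and CHIR99021 were the lowest libraries, as for Snora41. RA was 4.98-fold lower than DMSO (3.78 to 6.66), from 62 against 301 tags, and CHIR99021 2.98-fold lower (2.42 to 3.70), from 127 against 301. MicroRNA tags as a class were 3.03-fold lower after RA (3.02 to 3.04) and 1.90-fold lower after CHIR99021 (1.89 to 1.90). Relative to microRNA tags the ratio was 0.608 after RA and 0.636 after CHIR99021, and neither was called. The few tags of Snora36b that matched no hairpin gave ratios of 0.313 after RA, still called, and 0.624 after CHIR99021, not called. Coverage rose from 20 tags at base 67 to 142 at base 68, 1 base before the most common start, base 69. Of the 1198 tags of Snora36b, 1135 began within 2 bases of the start of miR-664-5p. These ratios are therefore not read as those of the snoRNA apart from the microRNA.

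Scarna3a and Scarna3b, H/ACA scaRNAs of related sequence in introns of Cop1 and Dcaf5, overlap the hairpins Mir1843b and Mir1843a. Unlike in Snora36b, the hairpin supplied the smaller part of their tags, 35.7% in Scarna3a and 30.97% in Scarna3b. The larger part came from the 5′ end of the scaRNA, outside the hairpin. The 3′ microRNAs of this pair, miR-1843b-3p (chr1:159340400-159340419, plus strand) and miR-1843a-3p (chr12:80391615-80391636, minus strand), are shown because their seeds, in capitals, are not the same.
miR-1843b-3p: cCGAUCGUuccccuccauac
miR-1843a-3p: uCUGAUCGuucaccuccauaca

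In Scarna3b, the 5′ part had 42 tags after RA, 44 after BIO, 20 after CHIR99021, 31 after VC, 26 with ddH2O and 62 with DMSO, while the 3′ part, with the hairpin, had 6, 18, 20, 21, 18 and 18 tags in the same order. The DMSO library was the highest for the 5′ part and the RA library the lowest for the 3′ part. The 3′ share was 12.5% after RA (4.73 to 25.2%), 29.0% after BIO, 50.0% after CHIR99021 (33.8 to 66.2%), 40.4% after VC, 40.9% with ddH2O and 22.5% with DMSO (13.9 to 33.2%). The CHIR99021 interval lay just above that of DMSO, and the ddH2O share was also higher than the DMSO share. In Scarna3a the 3′ share was 39.3% after CHIR99021 (21.5 to 59.4%) and 29.2% with DMSO (17.0 to 44.1%), and these intervals overlap.

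For CHIR99021 against DMSO, 0 of 24 members were called higher and 6 lower, against 1.23% higher and 33.9% lower among 891 genes. The 6 were Scarna6, Snora36b, Scarna3b, Snora41, Scarna3a and Scarna2. They were 4 of the 5 scaRNAs compared and 2 of the 19 Snora genes compared. Scarna3a stood at 1.18 RPM after CHIR99021, 1.08 with ddH2O and 2.54 with DMSO. The 9 scaRNA genes together had 153 tags after CHIR99021 and 279 in DMSO, 2.30-fold lower (1.88 to 2.81), and the 40 Snora genes 3174 against 3080 tags, a ratio of 0.819 (0.779 to 0.860). After RA the scaRNA sum was 151 against 279 tags, 1.90-fold lower (1.55 to 2.33). The vehicles differed too, with 226 scaRNA tags with ddH2O against 279 in DMSO, 1.33-fold lower (1.11 to 1.59). For the H/ACA scaRNAs alone, the ratio to DMSO was 0.437 for CHIR99021, 0.564 for RA, 0.690 for BIO and 0.503 for ddH2O. ScaRNA tags made up 4.17% of member tags after RA, 8.44% after BIO, 4.60% after CHIR99021, 5.74% after VC, 7.11% with ddH2O and 8.31% with DMSO. The median log2 ratio after CHIR99021 was -0.40 over members, -0.62 over all genes and -0.52 over 51 box C/D genes, 12 of them lower. With microRNA tags as the total, 5 members were higher and 0 lower, under TMM scaling 1 was higher and 2 lower, and with ddH2O as control 1 was higher and 3 lower.

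For BIO against DMSO, 0 of 22 members were called in either direction, against 1.16% higher and 6.43% lower among 949 genes, and with no minimum count 2 were higher and 1 lower. Of the 22, 16 lay within 1.5-fold of DMSO. The median log2 ratio was -0.28 over members, -0.22 over all genes and -0.05 over 53 box C/D genes. Snora16a (1.06, 0.932 to 1.21), Snora81 (1.06, 0.862 to 1.31) and Snora61 (1.01, 0.791 to 1.29) had intervals that include 1. The inhibitors were not compared directly, and both were set against the same DMSO library.

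Scarna6, a composite RNA with a box C/D and an H/ACA part in an intron of Atg16l1, had the lowest ratio among scaRNAs after RA and CHIR99021. It is at chr1:87784556-87784820, plus strand. Its tags came mostly from its 5′ end, where the TGATGA motif of box C lies, as the most abundant tag shows.
Scarna6 tag: GTCAGTGATGAATAGTAAAAGGTCT
Scarna6 stood at 0.826 RPM after RA, 3.46 after BIO, 1.05 after CHIR99021, 0.922 after VC, 3.00 with ddH2O and 3.44 with DMSO. The RA, CHIR99021 and VC libraries were low and the BIO library and both vehicles high. RA was 4.17-fold lower than DMSO (2.39 to 7.72), CHIR99021 3.27-fold lower than DMSO (2.04 to 5.42) and VC 3.25-fold lower than ddH2O (1.91 to 5.76). The 3 low libraries are also the 3 with the fewest tags of 27 to 44 bases. Among tags of 20 to 26 bases alone, the ratios were 0.221 for RA, 0.331 for CHIR99021 and 0.390 for VC, so each was still called. Scaled to microRNA tags, the ratios were 0.727 for RA and 0.580 for CHIR99021, neither called, and 0.287 for VC, which was called.

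Scarna2, a box C/D scaRNA at chr3:108554338-108554751, minus strand that guides methylation of the U2 spliceosomal RNA, gave long tags. Its most abundant tag ends at the last base of the transcript and has 31 bases.
Scarna2 tag: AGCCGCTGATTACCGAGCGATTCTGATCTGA
This tag was counted 24 times after BIO and 26 times with ddH2O, and 0 times in each of the other 4 libraries, which are those with few tags of 31 bases or more. Tags of 27 to 44 bases from Scarna2 numbered 1 after RA, 35 after BIO, 4 after CHIR99021, 3 after VC, 37 with ddH2O and 8 with DMSO. Its tags of 18 to 26 bases numbered 15, 14, 10, 13, 18 and 15 in the same order. In these unscaled counts the libraries thus differed more in the long tags of Scarna2 than in its short ones.

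By all tags, Scarna2 was called lower after VC than with ddH2O, 3.48-fold (1.96 to 6.502), from 16 against 55 tags, and higher with ddH2O than with DMSO, 2.22-fold (1.34 to 3.78), from 55 against 23 tags. With tags of 20 to 26 bases, in member and total, the ratio was 0.877 for VC against ddH2O and turned to 0.703 for ddH2O against DMSO, and neither was called. Snora62 was of the same kind, with 2 tags of 27 to 44 bases after RA, 25 after BIO, 12 after CHIR99021, 3 after VC, 25 with ddH2O and 7 with DMSO. VC against ddH2O was 2.18-fold lower for Snora62 by all tags (1.24 to 3.98), and 0.905 with tags of 20 to 26 bases.

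**Figure D5:**
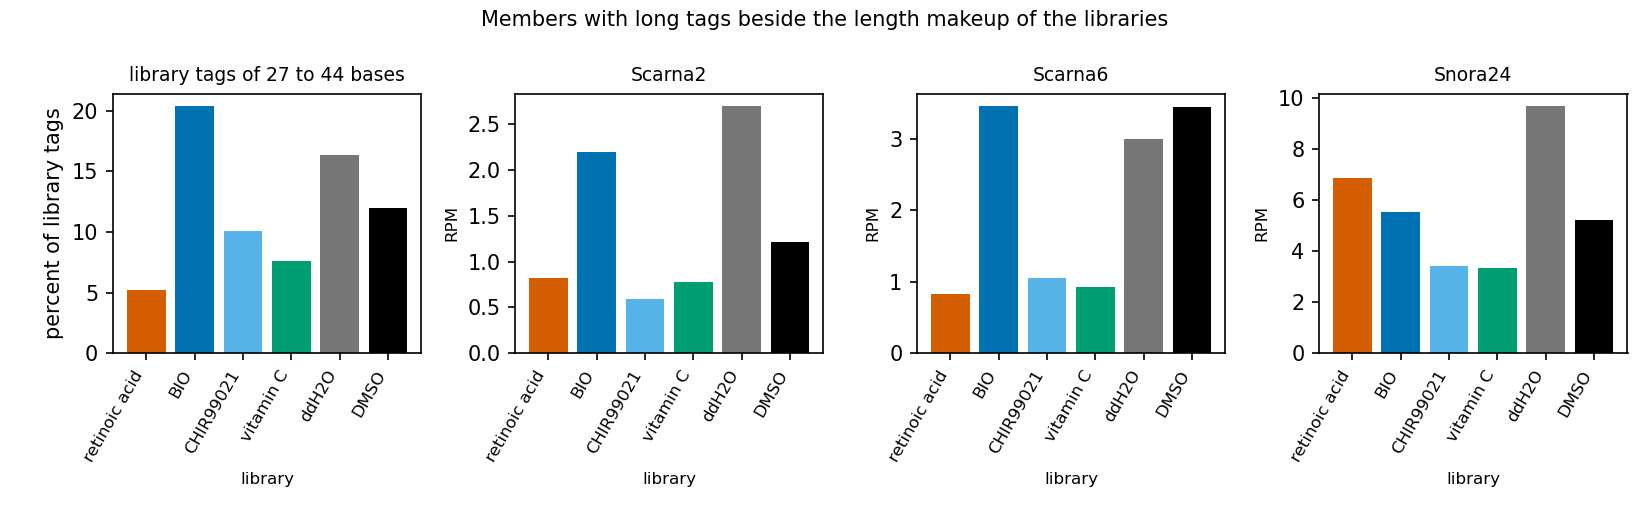
Percent of library tags of 27 to 44 bases (left) and RPM of Scarna2, Scarna6 and Snora24, 1 bar per library. The bars of Scarna2 are highest in BIO (2.20) and ddH2O (2.70), the libraries with the most long tags, while Snora24 is highest in ddH2O (9.67) and RA (6.87), which differ in long tags.

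For VC against ddH2O, 1 of 23 members, Snora64, was called higher and 4 lower, against 5.33% higher and 4.07% lower among 1032 genes. The lower ones were Scarna2, Scarna6, Snora24 and Snora62. The median log2 ratio was 0.01 over members, -0.07 over all genes and -0.28 over 50 box C/D genes, 8 of them lower. Counted on tags of 20 to 26 bases, 2 members were lower, Scarna6 and Snora24, and the background was not recomputed for these lengths. Snora64 had 29 tags after VC and 14 with ddH2O, a ratio of 2.05 (1.05 to 4.19), and it was not called against DMSO, at 1.15.

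Snora24, in the non-coding host gene Snhg8, stood at 6.87 RPM after RA, 5.53 after BIO, 3.41 after CHIR99021, 3.35 after VC, 9.67 with ddH2O and 5.19 with DMSO. The ddH2O library was the highest and VC the lowest. VC was 2.89-fold lower than ddH2O (2.19 to 3.86), from 69 against 197 tags, and 0.645 of DMSO, which is no call. DMSO lay between them, and with 1 library each a high ddH2O value and a low VC value cannot be told apart. Long tags, of 27 to 44 bases, made up 60.9% of Snora24 tags after VC and 59.4% with ddH2O, and the ratio in tags of 20 to 26 bases was 0.333.

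Between the vehicles, ddH2O against DMSO, 1 of 23 members was called higher (Scarna2) and 1 lower (Scarna3a), against 14% higher and 5.56% lower among 1043 genes. Scarna3a had 22 tags with ddH2O and 48 with DMSO, 2.35-fold lower (1.39 to 4.10). Of the 23, 11 lay within 1.5-fold. Against DMSO the counts were 11 of 22 for RA, 16 of 22 for BIO and 14 of 24 for CHIR99021, and for VC against ddH2O 15 of 23. The share within 1.5-fold over all genes was not computed. The distance between vehicles mixes solvent, culture and library preparation, which cannot be told apart. Snora44 (0.558, 0.449 to 0.691), Snora70 (0.573, 0.402 to 0.810), Snora36b (0.597, 0.496 to 0.718) and Snora24 (1.86, 1.45 to 2.40) differed between vehicles beyond counting error without reaching 2-fold.

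The balance of the ends was compared without scaling between libraries. Tags of the 3′ part made up 59.9% of member tags after RA (58.2 to 61.5%), 55.1% after BIO (53.4 to 56.8%), 51.1% after CHIR99021 (49.4 to 52.8%), 51.3% after VC (49.4 to 53.1%), 57.8% with ddH2O (56.1 to 59.6%) and 49.6% with DMSO (47.9 to 51.3%). RA and BIO were above DMSO and VC below ddH2O with no overlap of intervals, and the vehicles also lay apart from each other. Snora57, whose tags lie before the midpoint, weighs on these shares. Without it they were 76.9% after RA, 72.8% after BIO, 71.5% after CHIR99021, 71.7% after VC, 76.3% with ddH2O and 67.0% with DMSO, and the order of RA, ddH2O and DMSO was kept. Snora16a, with a 3′ share of 99.2% after RA and 99.3% with DMSO, held 21.3% and 12.4% of member tags. Snora16a and Snora81 supplied 763 and 497 of 2166 3′ tags after RA, and 412 and 154 of 1667 with DMSO. The pooled share thus mixes which members are abundant with the ends within each member. Within Snora81 the 3′ share was 98.8% after RA (97.4 to 99.6%) and 92.2% with DMSO (87.1 to 95.8%), while that of Snora16a was alike in both. How much each part weighs was not tested. The pooled share was not computed without Snora16a and Snora81, and no change of ends within members is read from it.

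The least abundant members gave little beyond presence. The 25 members under 20 tags had between 0 and 19 tags in their highest library, with Scarna17 at 19 just below the limit and Snora34 and Snora21, each with 21, just above it. Snora34, in Kansl2, shares 79.5% of its tags with the hairpin Mir1291, and Scarna13, in Snhg10, 71.4% with a hairpin, Mir3069. Scarna10, the composite RNA that guides modification of the U5 spliceosomal RNA, varied little, with 29 tags after RA, 26 after BIO, 27 after CHIR99021, 24 after VC, 23 with ddH2O and 31 with DMSO. It was called in none of the comparisons. Snora74a, which had 42, 35, 36, 49, 41 and 41 tags in the same order, and Snora75, in the nucleolin gene Ncl, with 71, 82, 60, 45, 84 and 86, were likewise not called in any. Snora75 nevertheless came near 2-fold, at 0.530 for VC against ddH2O (0.360 to 0.769) and 0.554 for CHIR99021 against DMSO (0.392 to 0.780). Both intervals leave out 1.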

How the data were processed

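Small RNA reads of 6 J1 cultures, 1 library per group, were deposited as raw tag counts per distinct sequence beside the length of each tag in bases. Trimming and filters are not given in the sources used here; the submitters' processing notes name mm9, and the labels name TRIzol extraction and a TruSeq RNA kit. Tags carry no coordinates, so positions come from the match to GENCODE M21 on GRCm38, without a mismatch on the sense strand; tags of several members were split evenly. Cytoplasmic tRNA and 28S rRNA were outside the search.

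Counts were divided by library tags (18870345 to 23758363), and log2 ratios used a pseudocount of 0.5. Intervals came from SciPy 1.17.1 in Python 3.11.15, and TMM factors from edgeR 4.0.16 in R 4.3.3. Named genes are the 15 members with the highest mean level, Scarna members with 20 tags or more, and up to 5 called members in each direction. The members, lists and added alternatives (box C/D total, 20 to 26 bases, without Snora57) were chosen with earlier results of these data known. Figures were drawn with matplotlib 3.10.9.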

Additional observations from a re-analysis of the deposited data

Results flagged for a closer look

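Some tags carry the sequence of a member followed by 1 to 3 bases that its annotated transcript lacks, and they are in no comparison above. Those that add bases after a stop inside the transcript numbered 37 after RA, 83 after BIO, 65 after CHIR99021, 62 after VC, 68 with ddH2O and 69 with DMSO, all above the 3 tags that a count of 0 allows. In Snora36b they were 97 tags in all, 45 with a single T and 29 with a single A, beside 1198 exact tags. In Snora41 they were 74 tags, 49 of them with a single T, beside 445 exact tags, and in Snora57 54 tags, 34 of them with a single A, beside 5786.

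Tags that run 1 to 3 bases past the annotated 3′ end numbered 49 after RA, 88 after BIO, 41 after CHIR99021, 59 after VC, 78 with ddH2O and 57 with DMSO. For members with a known next base in a transcript of the host gene, 294 of 320 such tags, 91.9%, had the bases of the host. The next base is T in Snora24, where 83 of 85 tags equalled the host, in Snora16a, where 81 of 84 did, and in Snora70, where 67 of 70 did, and it is C in Snora61, where 10 of 13 did. These extensions therefore match the genome-encoded sequence past the annotated end in most tags, which a count of added T bases alone would not show.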

How the results depend on the processing

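With 1 library per group, no library was left out. No paired analysis was possible because each group has a single library and the groups share no replicate other than number 1. Of the alternatives for the sums, counts and shares, 91 values stayed close to the reported one, 85 moved and 7 turned round. Those that moved or turned follow.

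With microRNA tags as the total, the summed ratio was 3.18 for RA, 1.03 for BIO (turned round), 1.49 for CHIR99021 (turned), 0.870 for VC and 1.17 for ddH2O against DMSO (turned). Members higher and lower were then 15 and 0 for RA, 5 and 0 for CHIR99021, 3 and 0 for ddH2O, with 1 higher for BIO and 0 for VC. Under TMM the sums were 1.31 (RA), 0.966 (BIO), 1.16 (CHIR99021, turned) and 0.992 (VC), with 4 higher for RA, 1 for BIO, 1 higher and 2 lower for CHIR99021 and 3 lower for ddH2O. With box C/D tags as the total the sums were 1.25 (RA), 1.05 (CHIR99021, turned), 0.999 (VC) and 1.02 (ddH2O, turned), with 4 higher for RA, 1 higher and 2 lower for CHIR99021 and 3 higher for ddH2O. Against the other vehicle the sums were 1.20 (RA), 0.968 (BIO), 0.897 (CHIR99021) and 0.818 (VC), with 3 higher for RA, 1 for BIO, 1 higher and 3 lower for CHIR99021 and 0 higher for VC; Scarna3a after CHIR99021 turned to 1.09.

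Tags of 20 to 44 bases gave sums of 0.894 (BIO) and 0.862 (VC), and 0 higher and 4 lower for ddH2O. Tags of 20 to 26 bases, as members and total, gave 0.988 (RA, turned) and 0.913 (BIO), with 2 higher for RA, 2 lower for VC and 0 higher for ddH2O, and Scarna2 in ddH2O turned to 0.703. With tags of other RNA classes left out the sums were 1.14 (RA) and 0.828 (CHIR99021), with 3 lower for ddH2O. Without the most abundant tag of each gene the sum was 1.12 (RA), with 2 higher for RA, 1 lower for BIO, 0 higher and 2 lower for VC, and 0 and 0 for ddH2O. Without Snora57 the sums were 1.11 (RA) and 0.855 (VC). With no minimum count 2 were higher for RA, 2 higher and 1 lower for BIO and 2 and 2 for ddH2O; with tags of several members left out 3 were higher for RA. With microRNA tags as the total, Snora3 after RA turned to 1.45 and Snora64 to 1.03.

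The 3′ share in RA, BIO, CHIR99021, VC, ddH2O and DMSO was 69.0, 59.3, 56.2, 55.7, 61.8 and 55.03% with tags of 20 to 44 bases, and 76.9, 72.8, 71.5, 71.7, 76.3 and 67.0% without Snora57. Counting only tags whole on one side of the midpoint it was 52.3, 52.2, 47.3, 49.3 and 46.8% in all but ddH2O. Without other RNA classes it was 51.3% (BIO), 47.6% (VC), 55.3% (ddH2O) and 44.98% (DMSO), and without the most abundant tags 59.4% (BIO), 55.9% (CHIR99021), 56.9% (VC), 63.5% (ddH2O) and 52.4% (DMSO). The cause of these moves was not tested.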
